A study of Mus musculus with 8 samples.

Results

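Costimulatory receptors are the surface proteins that supply the second signal a T cell needs beside its antigen receptor. The 7 genes described here were taken by name from the deposited expression table: Icos, Cd28, Tnfrsf9, Tnfrsf4, Tnfrsf18, Cd27 and Cd226. All 7 are among the 19673 genes of the table and among the 16120 genes tested. The RNA came from CD8 T cells, gated as live and positive for CD45, CD3e and CD8, of tumours grown from the mouse mammary line Py8119. The hosts carried an Mtdh knockout (Mtdh KO, 4 libraries, KO-1 to KO-4) or were wild type (WT, 4 libraries, WT-1 to WT-4), and both groups bore the same tumour line. The type of knockout allele, and the strain, age and sex of the mice, are not given in the sources used here. The submitters call the libraries biological replicates.

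CD28 and ICOS are related receptors of the immunoglobulin superfamily. CD28 is present on resting T cells and binds CD80 and CD86 on antigen-presenting cells, whereas ICOS is induced by activation and binds ICOS ligand. TNFRSF9 (4-1BB), TNFRSF4 (OX40), TNFRSF18 (GITR) and CD27 belong to the tumour necrosis factor receptor superfamily and signal through TRAF adaptors to NF-kappaB. CD27 is present on naive T cells, and the other three appear after activation and are also abundant on regulatory T cells. CD226 (DNAM-1) binds CD155, the product of Pvr, and CD112, the product of Nectin2, which the inhibitory receptor TIGIT also binds.

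Icos and Cd28 share a locus and a coding feature, and their sequences are shown for that reason. On mouse chromosome 1 of mm39 the genes lie in the order Cd28 (60755959 to 60812518), Ctla4 (60926159 to 60954991) and Icos (61017086 to 61039479), all on the plus strand. Ctla4 encodes the inhibitory receptor that competes with CD28 for its ligands. The gaps are 113640 bases between Cd28 and Ctla4 and 62094 bases between Ctla4 and Icos. The cytoplasmic tails of CD28 and ICOS are known to recruit PI3-kinase through a short tyrosine motif. In the reading frame of each coding sequence (GENCODE M21, GRCm38), a tyrosine codon followed by ATG, any codon and ATG was searched for, and the 12 bases of each match are in capitals below, with 15 bases on either side. The Ctla4 stretch is the match to a looser pattern, a tyrosine codon, any 2 codons and ATG. The stretches lie on the plus strand at chr1:60995545-60995586 for Icos, chr1:60769678-60769719 for Cd28 and chr1:60914631-60914672 for Ctla4.
Icos: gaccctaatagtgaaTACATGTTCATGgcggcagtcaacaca
Cd28: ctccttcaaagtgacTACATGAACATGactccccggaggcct
Ctla4: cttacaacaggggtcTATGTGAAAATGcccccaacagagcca
The stricter pattern was present in 15 of 3295 mouse coding sequences of 500 to 800 bases (0.455%), and the looser one in 394 of them (12%).

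The tumour necrosis factor receptor genes of the set lie elsewhere. On chromosome 4 of mm39, Tnfrsf4 (156098300 to 156101069) and Tnfrsf18 (156110621 to 156113352) are neighbours on the plus strand with 9551 bases between them, and Tnfrsf9 (150999019 to 151030559) is on the same strand. Cd27 lies on chromosome 6 (125209585 to 125213973, minus strand). Stretches upstream of transcription starts are shown for the 4 tumour necrosis factor receptor genes, since these share a signalling route and differ in their values below. They come from RefSeq on GRCm38.p6 and cover at most 250 bases before a start. Bases annotated as untranslated exon are left out, except in the stretch of the second Tnfrsf9 start, which lies within such bases. Capitals mark matches on either strand to GGAAA, the core that NFAT factors recognise. For Tnfrsf9, which has 2 listed starts, the upstream stretch of the first start (chr4:150919905-150920154) is given with 30 bases before the second (chr4:150927946-150927975), where capitals mark a match to the kappaB pattern instead, spelled GGG, any 2 bases and TTTCC.
Tnfrsf9 first start: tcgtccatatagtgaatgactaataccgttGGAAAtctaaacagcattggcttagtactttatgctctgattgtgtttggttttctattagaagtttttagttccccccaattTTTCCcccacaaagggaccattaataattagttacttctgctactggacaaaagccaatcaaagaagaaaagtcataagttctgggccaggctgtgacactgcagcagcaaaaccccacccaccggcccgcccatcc
Tnfrsf9 second start: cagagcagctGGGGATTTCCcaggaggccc
Tnfrsf4 (chr4:156013611-156013694): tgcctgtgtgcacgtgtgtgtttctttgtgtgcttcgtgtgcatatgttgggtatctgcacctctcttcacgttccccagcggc
Tnfrsf18 (chr4:156026072-156026163): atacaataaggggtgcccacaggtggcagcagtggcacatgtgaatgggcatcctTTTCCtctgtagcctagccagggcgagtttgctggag
Cd27 (chr6:125237028-125237277, minus strand): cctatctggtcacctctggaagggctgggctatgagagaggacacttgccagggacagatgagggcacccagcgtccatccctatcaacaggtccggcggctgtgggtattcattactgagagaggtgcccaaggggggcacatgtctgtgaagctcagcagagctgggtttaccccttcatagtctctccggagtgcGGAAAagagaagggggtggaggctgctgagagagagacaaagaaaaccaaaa
Over the full 250 bases before each start, the kappaB pattern was found in 1 of the 5 windows of these genes, the second Tnfrsf9 start, 43 bases before it. The same window held the AP-1 pattern TGANTCA, 15 bases before the start. Both matches lie in bases annotated as untranslated exon. Of the 3 GGAAA matches of this window, 1 overlaps the kappaB match. The GGAAA match of Tnfrsf4, 220 bases before its start, and a second match of Tnfrsf18, 61 bases before its start, lie outside the stretches shown. Among 32841 mouse promoter windows of the same length, 1.41% held the kappaB pattern, 6.75% the AP-1 pattern and 55.6% GGAAA. A match describes these letters and not a bound factor.

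The libraries held an estimated 16400000 to 29600000 reads. The number of distinct cDNA fragments behind them, estimated from the share of moderately expressed genes that a library missed, was 114000 in KO-2 to 636000 in WT-3. A single fragment was worth a normalized value of 38.5 to 150.3 in KO and 23.4 to 64.5 in WT, so values near these rest on few molecules. Mtdh itself fell, with values between 2538 and 5118 in the KO libraries, against 6407 to 12745 in the WT libraries (log2 fold change -1.23, standard error 0.25, limma adjusted p = 0.0400). It did not pass without KO-2, KO-3, KO-4, WT-1 or WT-2, with an adjusted p of up to 0.241, nor with a minimum mean of 50 (0.0945). With the mean of Cd3e and Cd3g as a covariate its log2 fold change was -0.80 (0.348), and when scaled to them -2.23 (0.304), neither of which passed. Of the tested genes, 34 (0.211%) rose and 4 (0.0248%) fell in KO at a limma adjusted p under 0.05. Transcripts of cells outside the gate were present: 12 macrophage and monocyte markers summed to 114760.0 to 261589 in KO and 190620.0 to 294825 in WT. The 12 markers of T cells and CD8 T cells summed to 21173 to 45906 in KO and 7921 to 26832 in WT.

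Of the 7 receptors, Icos and Tnfrsf9 rose in KO past the threshold, against a background of 0.211% of tested genes that rose and 0.236% that changed in either direction. At an unadjusted limma p under 0.05, Cd28, Tnfrsf4 and Tnfrsf18 were higher in KO as well, 5 of the 7 with Icos and Tnfrsf9, against 3.21% of tested genes higher and 6.7% in either direction. In 4 of the 7, Icos, Tnfrsf9, Tnfrsf4 and Tnfrsf18, every KO library lay above every WT library, which held for 2.02% of tested genes. None of the 7 had every KO library below every WT library, which held for 2.09%. Tnfrsf4 averaged 145 in KO and 6.50 in WT, so it reached the minimum mean of 10 only through its KO values. Its place in these counts is therefore no support. Cd28 had a positive fold change that did not pass, with 1 WT library among the KO values. Cd27 and Cd226 overlapped between the groups. The receptors, and the lists of genes below, were chosen with earlier results of these data known. Counts set beside the shares over all genes are therefore a description. In bulk RNA a change in the share of cells that carry a transcript and a change in transcript per cell cannot be told apart.

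**Figure D1:**
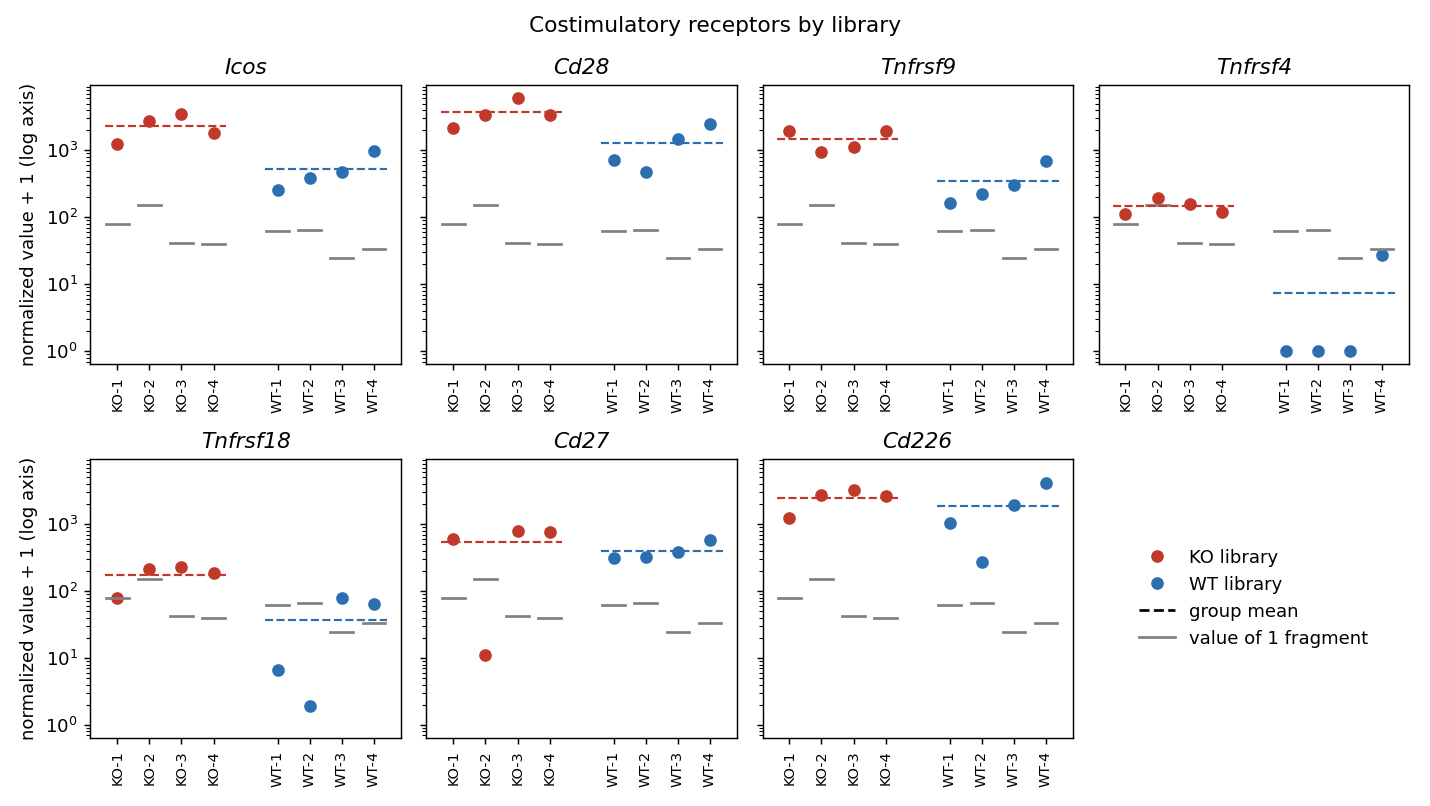
Normalized value plus 1 (vertical log axis) of the 7 costimulatory receptors in each of the 4 KO and 4 WT libraries (horizontal axis). Dashed lines are group means, grey bars the value of 1 fragment in that library. Icos is at 1250.5 or more and Tnfrsf9 at 956 or more in every KO library, whereas Tnfrsf4 lies at 0 in 3 WT libraries and Cd27 at 9.91 in KO-2.

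Icos (ENSMUSG00000026009), the inducible member of the CD28 family, had normalized values of 1250.5, 2784, 3451 and 1847 in KO-1 to KO-4, against 258, 379, 479 and 963 in WT-1 to WT-4. Its lowest KO value, in KO-1, was above its highest WT value, in WT-4. The group means were 2333 ± 977 in KO and 519.8 ± 309 in WT (n = 4 each, SD). The fitted change was 4.70-fold, a log2 fold change of 2.23 (SE 0.39, 95% interval 1.42 to 3.05, limma adjusted p = 0.0127). WT-1 to WT-4 held about 4.22, 5.88, 20.5 and 29.6 fragments of Icos by the estimate above, against 16.0, 18.5, 84.7 and 48.0 in KO-1 to KO-4. Estimated fragments, unlike normalized values, are not scaled to the library total, which ran from 114000 in KO-2 to 636000 in WT-3. In them the groups overlapped, which is no measure of the difference between the groups. The fold change was 1.95 to 2.59 on the log2 scale when any single library was left out. It passed in 5 of the 8 omissions and not without KO-2 (adjusted p = 0.0531), KO-4 (0.0577) or WT-1 (0.0968), nor with a minimum mean of 50 (0.0545). A predicted gene, Gm37039, lies within Icos on the same strand and averaged 221 in KO and 63.5 in WT, so reads of the overlap could have been assigned to either.

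Cd28 (ENSMUSG00000026012), the receptor that gives the classical second signal, had values of 2195, 3337, 6147 and 3414 in KO-1 to KO-4, against 714, 471, 1481 and 2517 in WT-1 to WT-4. WT-4 stood among the KO values, and the other 3 WT libraries lay below all KO libraries. The means were 3773 ± 1678 in KO and 1296 ± 921 in WT (n = 4 each, SD). The log2 fold change was 1.73 (SE 0.40, 95% interval 0.89 to 2.58, limma adjusted p = 0.105), which did not pass over all genes. Without WT-4 it was 2.15 (adjusted p = 0.00405), and in the other 7 omissions the adjusted p ranged up to 0.509.

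Tnfrsf9 (ENSMUSG00000028965), whose product 4-1BB is induced on activated CD8 T cells and prolongs their survival, had values of 1923, 956, 1121 and 1919.8 in KO-1 to KO-4. In WT-1 to WT-4 it had 160.0, 219.5, 304 and 695. KO-1 and KO-4 were the high KO libraries for this gene, unlike for Icos and Cd28, where KO-3 was highest and KO-1 lowest. The means were 1479.7 ± 514 in KO and 344.8 ± 241 in WT (n = 4 each, SD). The change was 4.79-fold, or 2.26 on the log2 scale (SE 0.43, 95% interval 1.35 to 3.17, limma adjusted p = 0.0277). The WT-1 to WT-4 values correspond to about 2.62, 3.40, 13.0 and 21.4 fragments, and the KO-1 to KO-4 values to 24.6, 6.36, 27.5 and 49.9. These fragment numbers, which are not scaled to the library total, overlapped between the groups. Tnfrsf9 passed in 3 of the 8 omissions, and not without KO-1 (adjusted p = 0.109), KO-4 (0.191), WT-1 (0.151), WT-2 (0.0824) or WT-3 (0.0551). It also did not pass with a minimum mean of 50 (0.0775).

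Tnfrsf4 (ENSMUSG00000029075), which encodes OX40, had values of 109, 191.6, 159.8 and 121 in KO-1 to KO-4, against 0, 0, 0 and 26.0 in WT-1 to WT-4. The groups did not overlap, and all 8 values were low: they correspond to 1.27 to 3.92 fragments in KO and to at most 0.799 in WT. The log2 fold change of 5.97 (standard error 1.96, limma adjusted p = 0.477) did not pass. Its size depends on the value added before the logarithm, being 6.72 with 0.5 added and 3.46 with 10 added.

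Tnfrsf18 (ENSMUSG00000041954), which encodes GITR, had values of 77.7, 212, 226 and 183 in KO-1 to KO-4, against 5.58, 0.946, 76.6 and 62.3 in WT-1 to WT-4. KO-1 and WT-3 nearly met, and WT-1 and WT-2, like 3 WT libraries of its neighbour Tnfrsf4, were close to 0. The log2 fold change was 3.36 (SE 1.58, 95% interval 0.07 to 6.66, limma adjusted p = 0.739) and did not pass. The values correspond to 0.995 to 5.55 fragments in KO and to 0.0147 to 3.27 in WT.

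Cd27 (ENSMUSG00000030336), a receptor of naive and memory T cells, had values of 595, 9.91, 779 and 752 in KO-1 to KO-4, against 314, 325, 383 and 573 in WT-1 to WT-4. The 3 other KO libraries lay above all WT libraries, and KO-2 lay far below them at less than the value of 1 fragment. KO-2 was the library with the fewest estimated fragments. The log2 fold change was -0.64 (SE 0.96, 95% interval -2.65 to 1.37, limma adjusted p = 0.906) with all libraries, and 0.86 (adjusted p = 0.814) without KO-2. Vamp1, which overlaps Cd27 on the other strand, was at 1068 in KO-2, against 19, 443 and 318 in KO-1, KO-3 and KO-4. Its part in the Cd27 values was not tested.

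Cd226 (ENSMUSG00000034028) encodes an adhesion and activation receptor of T and NK cells and lies on chromosome 18 of mm39 (89195091 to 89290353, plus strand). It had values of 1248, 2717, 3237 and 2603 in KO-1 to KO-4, against 1039, 269.7, 1919 and 4181 in WT-1 to WT-4. The highest and the lowest of the 8 values were both WT libraries, WT-4 and WT-2. The log2 fold change was 0.92 (SE 0.54, 95% interval -0.21 to 2.04, limma adjusted p = 0.770), and 0.19 without WT-2.

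**Figure D2:**
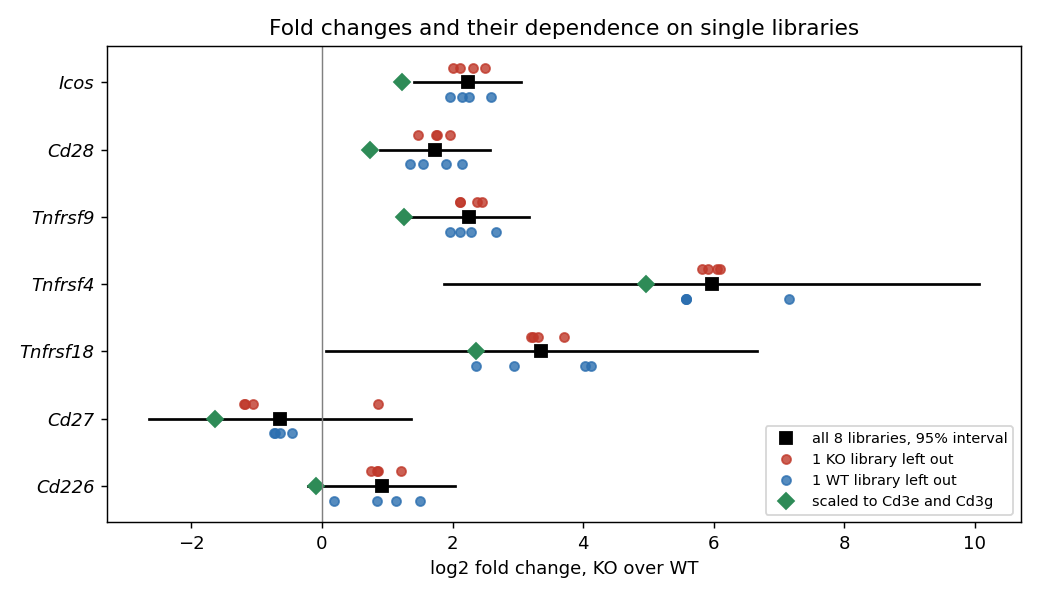
Log2 fold change of each receptor, KO over WT (horizontal axis), with its 95% interval from the fit of all 8 libraries (black), with 1 KO or 1 WT library left out (red and blue points) and after scaling to Cd3e and Cd3g (green). Icos and Tnfrsf9 stay above 1.9 in every omission, and Cd27 changes sign without KO-2.

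Levels were compared between the receptors per kilobase of exon, since long transcripts give more reads. In KO, Icos averaged 680.2 ± 285 per kilobase, Cd28 616 ± 274, Tnfrsf9 544 ± 189 and Cd226 501 ± 173 (n = 4 each, SD), and neighbours in this order differed by less than their SD. Cd27 followed at 229 ± 154, and Tnfrsf18 at 115 ± 44.1 and Tnfrsf4 at 106 ± 27.6 were lowest. In WT the order was led by Cd226 at 379 ± 346, with Cd28 at 212 ± 150.4, Cd27 at 171 ± 51.6, Icos at 151.5 ± 90.05 and Tnfrsf9 at 127 ± 88.6. Tnfrsf18 (23.8 ± 25.4) and Tnfrsf4 (4.77 ± 9.53) were lowest in WT as well. Icos thus led the levels in KO and stood behind Cd226, Cd28 and Cd27 in WT, although its distance to its neighbours was within the spread in both groups.

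**Figure D3:**
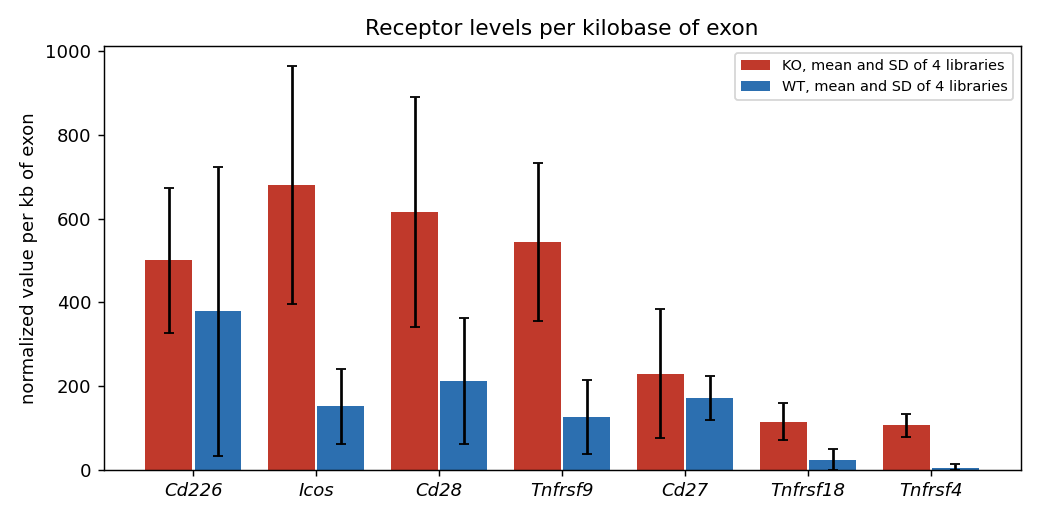
Normalized value per kilobase of exon (vertical axis) of the 7 receptors, ordered by their mean over all libraries. Bars are means of 4 KO (red) or 4 WT (blue) libraries, and whiskers are 1 SD, with the lower whisker stopped at 0. Icos averaged 680.2 in KO and 151.5 in WT, whereas Tnfrsf4 averaged 106 in KO and 4.77 in WT.

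The level of T cell transcripts also differed between the libraries and was set beside the receptors. The mean log2 value of Cd3e and Cd3g, subunits of the T cell receptor complex, was 11.02 ± 0.92 in KO and 10.02 ± 0.81 in WT (n = 4 each, SD), a difference of 1.0. It was 9.69, 11.19, 11.73 and 11.49 in KO-1 to KO-4, and 9.98, 8.90, 10.46 and 10.75 in WT-1 to WT-4. With Cd3d included, as planned, the mean was 9.22 ± 1.31 in KO and 8.77 ± 1.57 in WT, a difference of 0.46. Log2 fold changes of the 12 T cell and CD8 markers ran from -0.64 (Cd3d) to 1.77 (Cd247). Of the 12, 11 were positive, with Trac at 0.0068 and Lat at 0.012, and 0 passed the threshold. The median of the 12 was 0.74. The 1.0 describes Cd3e and Cd3g and is no measure of T cell content. WT-4, the WT library with most Cd3e and Cd3g, had the highest WT value of 6 of the 7 receptors, and WT-2, with least, had the lowest WT value of Cd28, Tnfrsf18 and Cd226.

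Scaled to Cd3e and Cd3g, the log2 difference between KO and WT was 1.23 for Icos (adjusted p = 0.362), 1.26 for Tnfrsf9 (0.376), 0.73 for Cd28 (0.494) and -0.086 for Cd226 (0.935) by limma, and none passed. This scaling lowers the log2 fold change of every gene by the same 1.0, so a gene between 0 and 1.0 changes sign whatever it encodes. The median of all genes went to -1.12, against -0.12 as deposited. The scaling left 0 genes past the threshold, with 2283 at an unadjusted p under 0.05. On that scale Tnfrsf4 and Tnfrsf18 had every KO library above every WT library, whereas Icos, at -0.64 in KO-4 and -0.33 in WT-2, and the other 4 receptors overlapped. The share of all genes without overlap on this scale was not computed. Tnfrsf4 was at 0 in WT-1 to WT-3, so its scaled values there give only the Cd3e and Cd3g level with its sign reversed. Tnfrsf4 and Tnfrsf18 rest on at most 3.92 and 5.55 estimated fragments in any library. With the mean of Cd3e and Cd3g as a covariate instead, Icos was at 1.65 (adjusted p = 0.181) and Tnfrsf9 at 2.10 (0.195). The scaling and the covariate of Cd3e and Cd3g alone were chosen after seeing the data, and the versions with Cd3d were planned. With the planned covariate, Icos (2.14, 0.0179), Tnfrsf9 (2.19, 0.0362) and Cd28 (1.51, 0.0386) were past the threshold, Cd28 at a smaller fold change than without it. The planned scaling left 0 genes past the threshold. Cd3d was nearly absent from 2 of the libraries, at 3.30 in KO-2 and 1.89 in WT-2.

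**Figure D4:**
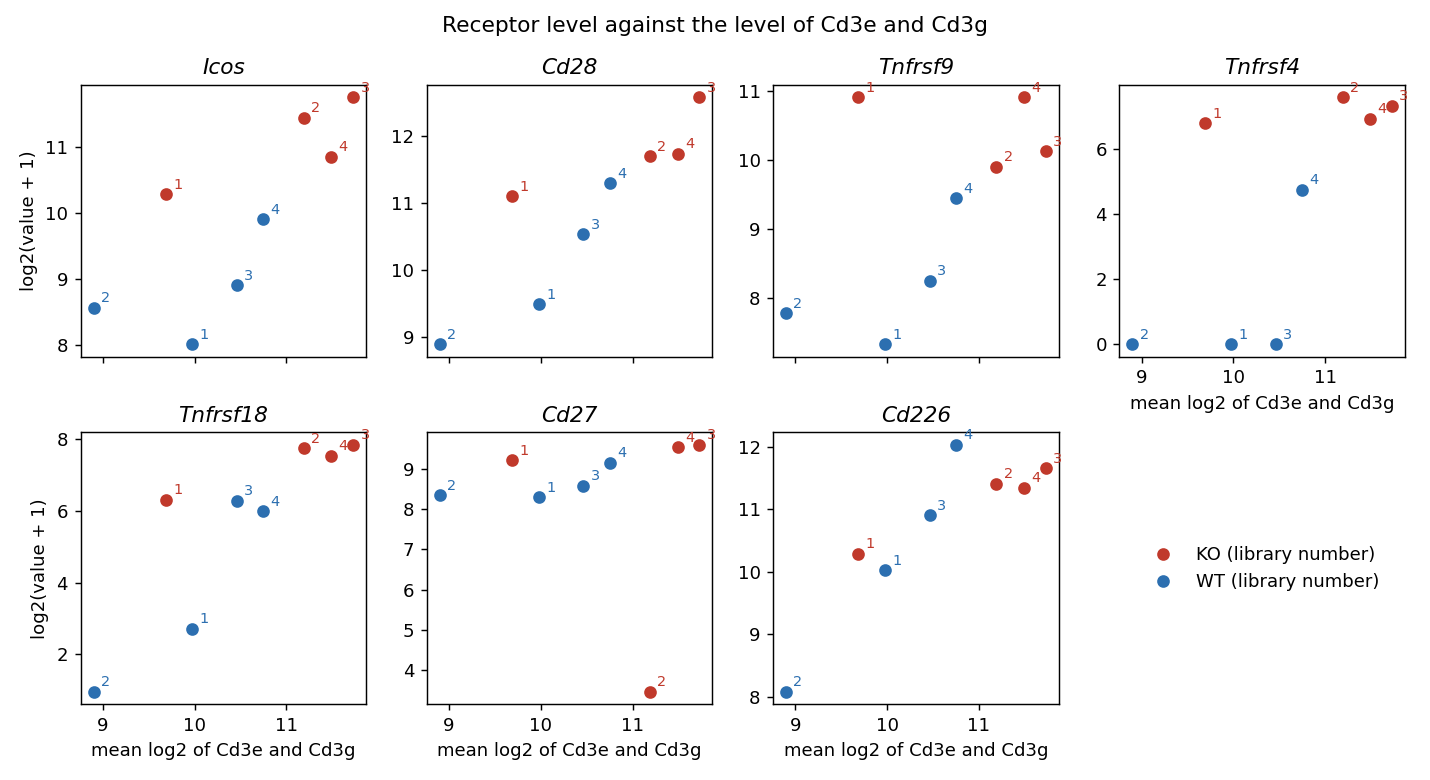
Log2 of value plus 1 of each receptor (vertical axis) against the mean log2 value of Cd3e and Cd3g (horizontal axis), with KO libraries in red and WT libraries in blue, numbered by replicate. Relative to Cd3e and Cd3g, Icos ran from -0.64 in KO-4 to 0.60 in KO-1 and from -1.96 in WT-1 to -0.33 in WT-2, and Tnfrsf9 from -1.60 in KO-3 to 1.22 in KO-1 and from -2.65 in WT-1 to -1.12 in WT-2, so the groups overlapped.

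Regulatory T cells carry several of these receptors, and their markers were examined beside them. Foxp3, which defines that lineage, was at 50.7 in KO-3 and 0 in the other 3 KO libraries, and at 21.9 in WT-3 and 0 in the other 3 WT libraries. Cd4 ranged from 11 to 122 in KO and from 0 to 169 in WT. The list of 9 CD4 and regulatory T cell markers summed to 6971 to 10006 in KO and 3161 to 4336 in WT. Of its 7 tested genes, 3 rose past the threshold, Ikzf2, Ctla4 and Il2ra, against 0.211% of all tested genes. Ikzf2, which encodes the transcription factor Helios, held the most, between 3795 and 6052 in KO and between 1639 and 2802 in WT. Those 3 genes are also expressed by activated CD8 T cells, and their cells of origin were not tested.

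Among 10406 other named protein-coding and long noncoding genes with a mean of at least 50, predicted genes left out, the profile of Icos over the 8 libraries was closest to that of Pde4d, a cyclic AMP phosphodiesterase, with a root mean square difference of 0.29 on the log2 scale after centring. Sh2d2a, an adaptor of T cells (0.45), and Dusp10, a MAP kinase phosphatase (0.46), came next. The profile of Cd28 was closest to those of Adgrg5 (0.25), Stk39 (0.38) and Il21r, the IL-21 receptor (0.41). Tnfrsf9 was closest to Dusp4, another MAP kinase phosphatase (0.45), Serpinb9, an inhibitor of granzyme B (0.46), and Iigp1, an interferon-induced GTPase (0.47).

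The nearest profiles of Cd226 were Apol7e (0.42), Pdap1 (0.43) and Cd8b1, the CD8 beta chain (0.43). Cd27 was nearest to H2-Ob (0.26), Atp5pb (0.31) and Plcb2 (0.34). For the sparse genes Tnfrsf4 and Tnfrsf18 the closest profiles were further away, at 0.49 for Dlg2, 0.80 for Fcrl6 and 1.22 for Tnfsf11 with Tnfrsf4, and 0.64 for Magoh, 0.65 for Eps8l1 and 0.70 for Pdzd2 with Tnfrsf18. These distances rest on 8 libraries and are a description.

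The ligands of the receptors were described next, which other cells of a tumour mainly carry. Of 9 ligand genes 7 were tested, none passed, 4 had an unadjusted p under 0.05, and 5 were positive, with a median log2 fold change of 0.78. Over all tested genes, 6.7% had an unadjusted p under 0.05, 43.4% were positive and the median was -0.12. Cd80, a ligand of CD28 and CTLA4, had values of 1176, 2012, 848 and 1059 in KO-1 to KO-4, against 89.3, 332, 391 and 568 in WT-1 to WT-4. The groups did not overlap, and the log2 fold change was 2.08 (standard error 0.49, limma adjusted p = 0.106). Tnfsf4, the ligand of OX40, was at 784, 879.6, 191 and 470.5 in KO and at 86.5, 33.1, 46.5 and 295 in WT, with a log2 fold change of 2.64 (standard error 0.79, limma adjusted p = 0.331). Pvr, the ligand of CD226, had the highest mean of the list, not corrected for length, and a log2 fold change of 0.61 (standard error 0.27, limma adjusted p = 0.730), which was -0.39 when scaled to Cd3e and Cd3g. The 9 dendritic cell markers summed to 2618 to 4878 in KO and 1111 to 1776 in WT, with 0 of 8 tested genes past the threshold, against 0.236% of all tested genes. Of the 8, 6 had positive log2 fold changes, and Zbtb46 (-0.72) and Ccl22 (-0.66) had negative ones. In KO-2 the sum came mainly from Ccr7 (1220) and Itgax (1092), with Flt3 and Clec9a at 0. The part of dendritic cells in the ligand values was not tested.

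Receptors that oppose costimulation had a median log2 fold change of 1.78 over 9 tested genes, 8 of them positive, 5 at an unadjusted p under 0.05 and 1 past the threshold. The shares over all tested genes were 43.4%, 6.7% and 0.236%. Ctla4, which lies between Cd28 and Icos, rose to 1613, 1764, 1330.0 and 1574 in KO-1 to KO-4, against 259.5, 124, 279 and 627 in WT-1 to WT-4. Its log2 fold change was 2.51 (standard error 0.42, limma adjusted p = 0.00870). It did not pass without KO-4 (0.0578) or WT-1 (0.0509), nor when scaled to Cd3e and Cd3g (1.51, 0.351) or with their mean as a covariate (2.07, 0.128). All 3 genes of the Cd28, Ctla4 and Icos locus thus had log2 fold changes of 1.73 or more, with Cd28 not past the threshold. Lag3, an inhibitory receptor that binds MHC class II, was between 349 and 583 in KO and between 36.0 and 99.3 in WT (log2 fold change 2.93, standard error 0.76, limma adjusted p = 0.175). Havcr2, which encodes TIM-3, had the highest mean of this list and a log2 fold change of 0.17 (SE 0.34), with overlapping groups, and of -0.83 when scaled to Cd3e and Cd3g.

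A list of 16 genes held other costimulatory receptors and Il2ra, which encodes a chain of a cytokine receptor. Of these, 13 were tested, 9 were positive, 4 had an unadjusted p under 0.05, and 1 passed, with a median log2 fold change of 0.65, against 43.4%, 6.7% and 0.236% of all tested genes. The gene that passed was Il2ra, the IL-2 receptor alpha chain, and none of the costimulatory receptors of the list did. Il2ra was between 762 and 1282 in KO and between 24.6 and 123 in WT (log2 fold change 3.57, standard error 0.62, limma adjusted p = 0.0127). It did not pass without KO-1 (0.0736) or KO-4 (0.0922), nor when scaled to Cd3e and Cd3g (2.57, 0.346). Tnfrsf1b, the second receptor of tumour necrosis factor, had the highest mean of the list, between 8211 and 10834 in KO and between 5021 and 6828 in WT. Its log2 fold change of 0.66 (standard error 0.19, limma adjusted p = 0.30) did not pass and was -0.34 when scaled to Cd3e and Cd3g.

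Downstream of the receptors, none of 19 genes of the TRAF and NF-kappaB arm passed, with 13 positive, 5 at an unadjusted p under 0.05 and a median log2 fold change of 0.31. Over all tested genes 43.4% were positive and 6.7% at that p. Rel, the NF-kappaB subunit c-Rel, had values of 11039, 15615, 7273 and 8073 in KO-1 to KO-4, against 2970.1, 5478, 2981 and 5961 in WT-1 to WT-4, without overlap. Its log2 fold change was 1.28 (standard error 0.27, limma adjusted p = 0.0527), and 0.28 when scaled to Cd3e and Cd3g. Tnfaip3, the NF-kappaB target and feedback inhibitor A20, was between 15630.0 and 27796 in KO and between 9050.2 and 14529 in WT. Its log2 fold change was 0.95 (standard error 0.22, limma adjusted p = 0.0922), and -0.052 when scaled to Cd3e and Cd3g.

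In the PI3-kinase arm that CD28 and ICOS use, none of 21 genes passed, with 13 positive, 4 at an unadjusted p under 0.05 and a median log2 fold change of 0.36. Over all tested genes 43.4% were positive and 6.7% at that p. Malt1, a protease of the pathway to NF-kappaB, had a log2 fold change of 0.84 (standard error 0.26, limma adjusted p = 0.355), and -0.16 when scaled to Cd3e and Cd3g. Pik3r1, the p85 subunit of PI3-kinase, had 0.63 (standard error 0.22, limma adjusted p = 0.573), and -0.37 on that scale.

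Among genes that costimulation is known to induce, none of 11 tested passed, 8 were positive, 4 had an unadjusted p under 0.05, and the median log2 fold change was 0.16, against 43.4% positive and 6.7% at that p over all tested genes. Irf4, a transcription factor of T cell activation, was at 1674, 2074, 2148 and 2634 in KO-1 to KO-4, against 143, 1538, 607 and 899.6 in WT-1 to WT-4 (log2 fold change 1.83, standard error 0.48, limma adjusted p = 0.201). Maf, a transcription factor downstream of ICOS in helper T cells and also of macrophages, was lower in every KO library than in any WT library but did not pass, between 3127 and 8754 in KO and between 9906 and 12700.1 in WT (-0.87, standard error 0.26, limma adjusted p = 0.341). Mcl1, a survival factor, had the highest mean of the list, with a log2 fold change of 0.23 (SE 0.25), and of -0.77 when scaled to Cd3e and Cd3g.

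**Figure D5:**
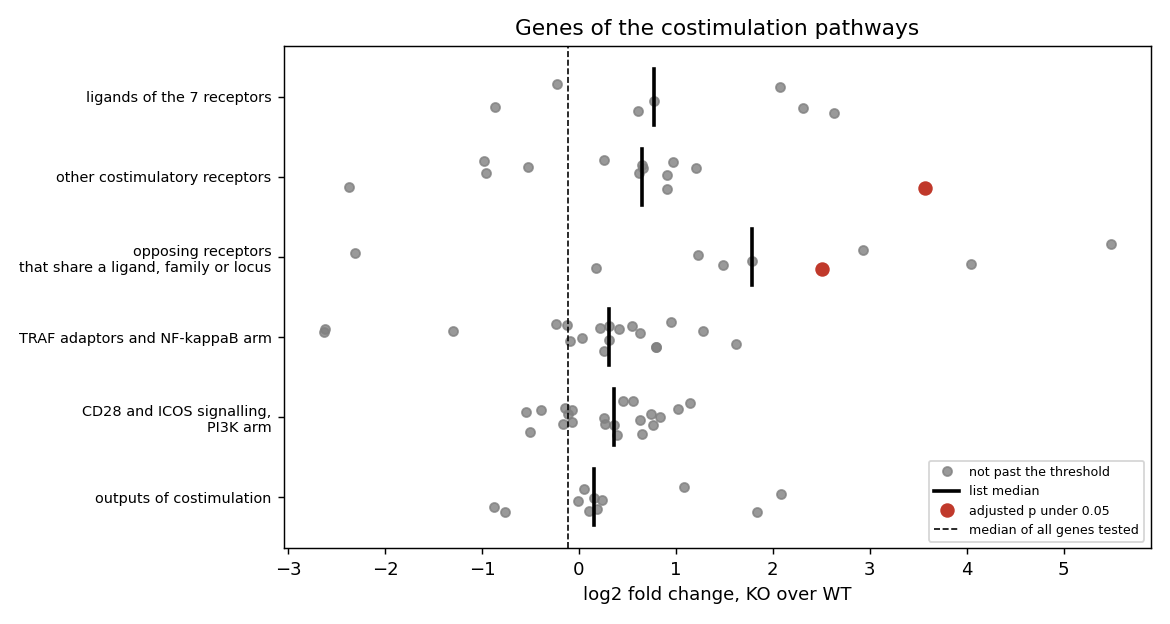
Log2 fold change, KO over WT (horizontal axis), of every tested gene of the 6 pathway lists (rows, with random vertical scatter). Black bars are list medians, the dashed line is the median of all genes tested at -0.12, and red points, Il2ra and Ctla4, passed the adjusted p threshold of 0.05.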

How the data were processed

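RNA of sorted CD8 T cells was measured in 4 KO and 4 WT libraries. The deposited table gives 1 signal per gene and library, namely normalized gene counts, since the authors named the table for DESeq2 normalization. Per the submitters' processing notes, the tools were STAR 2.7.8a, Partek and DESeq2 on mm39, with no roles stated. Strand and counting rules are not given in the sources used here. The low values were largely multiples of 1 step per library, taken as 1 read, and depth was the column sum over that step. Not all values were whole, so no count model was run. Fragments were estimated from the share of genes left under 3 reads in a library, among those averaging 20 to 500 elsewhere.

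Values were analysed as log2(value + 1) with limma 3.58.1 in R 4.3.3 (trend), KO against WT, for genes with a mean of at least 10. The test was two-sided with Benjamini-Hochberg adjustment over 16120 genes, a threshold of 0.05 and no covariate. Fold changes are differences of group means of log2(value + 1). For low genes their size depends on the value added, and single values near 0 weigh heavily in them. P-values measure the spread between these libraries. Exon lengths are from GENCODE M21, with exons of all transcripts merged. Coordinates are mm39 as in the table, and the ends are 1 base less than listed.

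From 6 pathway lists, the text names genes past the threshold, the 2 of lowest p and the 1 of highest mean. A gene that this rule names is not reported here. The members and lists were chosen with earlier results of these data known. Alternatives were the pseudocount, the minimum mean, scaling, covariates, a replicate block, sample weights, robust hyperparameters and omission of each library.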

Additional observations from a re-analysis of the deposited data

Results flagged for a closer look

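Within groups of 4 libraries, a value was singled out where its gap to the nearest other library took up more of the range than Dixon's 95% critical value allows. Over 46 groups of 23 genes this picked out 5 values, and chance alone gives about 1 in 20. Tnfrsf4 was at 26.0 in WT-4 and at 0 in the other 3 WT libraries, a tie beside which any other value would be singled out. Cd27 was at 9.91 in KO-2 and at 595 to 779 in the other 3 KO libraries. Il2ra was at 1282 in KO-1, above 762 to 816 in the other KO libraries, and at 24.6 in WT-3, below 97.8 to 123 in the other WT libraries. Havcr2 was at 513 in KO-3 and at 1280.3 to 1381 in the other KO libraries.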

How the results depend on the processing

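Over 19 alternatives Icos passed in 13, Tnfrsf9 in 11 and Cd28 in 4 (a pseudocount of 10, the CD3 covariate, sample weights and without WT-4), and Tnfrsf4, Tnfrsf18, Cd27 and Cd226 in none. The 2 receptors past the threshold became 0 with a minimum mean of 50, with CD3 scaling (Cd3d, Cd3e and Cd3g) and with the replicate block, and 0 to 3 when each library was left out. The genes past the threshold, 38 as reported, numbered 63 with a pseudocount of 10, 15 with a minimum mean of 50 and 112 with sample weights, and 7 to 70 when each library was left out. CD3 scaling, which moved the median of all genes to -0.57, and the replicate block left 0 by limma, with 511 and 1101 genes at an unadjusted p under 0.05; under the block Icos was at an adjusted p of 0.0764 and Tnfrsf9 at 0.108. Same-numbered libraries were not paired by any label, their deviations correlated at 0.02 to 0.08, and KO-1 correlated best with WT-2. Chosen after seeing the data, scaling to Cd3e and Cd3g left 0 genes and 0 receptors, that mean as a covariate 18 and 0, and omission of both KO-2 and WT-2 21 and 0 (Icos 0.122, Tnfrsf9 0.0670).

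Ligands past the threshold were 1 with a pseudocount of 10, sample weights or robust hyperparameters, and 0 to 1 over the omissions. Opposing receptors were 2 with a pseudocount of 10, 3 with sample weights, 0 with either scaling, the covariate of Cd3e and Cd3g or the block, and 0 to 1 over the omissions. The list of other costimulatory receptors and Il2ra had 0 with either scaling or the block and 0 to 1 over the omissions. The TRAF and NF-kappaB arm had 2 with a pseudocount of 10, no minimum mean, sample weights or robust hyperparameters, 1 with quantile scaling or the CD3 covariate, and 0 to 2 over the omissions. Costimulation outputs had 3 with sample weights, 0 to 1 over the omissions and 1 without both KO-2 and WT-2. The causes were not tested.

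Log2 fold changes that changed sign were those of Cd27 (0.0087 with quantile scaling, 0.31 with sample weights, -1.19 to 0.86 over the omissions, highest without KO-2, and 0.78 without KO-2 and WT-2), Havcr2 (-0.28 with CD3 scaling, -0.028 without KO-2 and WT-2, up to 0.52 without KO-3) and Mcl1 (-0.22 with CD3 scaling). With Cd3e and Cd3g scaling they were Cd226 (-0.086), Pvr (-0.39), Tnfrsf1b (-0.34), Havcr2 (-0.83), Tnfaip3 (-0.052), Malt1 (-0.16), Pik3r1 (-0.37) and Mcl1 (-0.77), and with that covariate Cd226 (-0.35). None of these genes was past the threshold. Either scaling lowers every gene by the same amount, 0.46 with CD3 scaling and 1.0 with Cd3e and Cd3g. The sign changes under scaling follow from that amount and are no result about the single genes.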

Other observations

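Other genes overlap the receptors on the genome. Camta1, which overlaps Tnfrsf9 on the other strand, averaged 53.2 in KO and 109 in WT, the opposite order to Tnfrsf9. Gm16008, which overlaps Tnfrsf18 on the other strand, was at 0 in every KO library and reached 37.1 in WT-4. The markers of NK and gamma-delta T cells, some of which express CD226 and CD27, summed to 1146 to 2288 in KO and 165 to 963 in WT. Of these, 0 of 8 tested genes passed the threshold, against 0.236% of all tested genes. Trgc2 alone held 237, 749, 1146 and 1107 in KO-1 to KO-4, against 75.3, 78.5, 92.1 and 475 in WT-1 to WT-4. Of the 8, 6 had positive log2 fold changes, and Gzma (-0.97) and Klra4 (-0.89) had negative ones.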
